A study of Homo sapiens with 6 samples.

Results

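The cluster of miR-182, miR-183 and miR-96 was followed in MDA-MB-231 cells, an established human triple-negative breast cancer line, after exposure to Withaferin A (WA), a steroidal lactone of the plant Withania somnifera. The members were all miRNAs of the table whose names begin with hsa-miR-182-, hsa-miR-183- or hsa-miR-96-, and there were 4 of 413: hsa-miR-182-5p, hsa-miR-183-5p, hsa-miR-96-5p and hsa-miR-183-3p. The 3p arms of miR-182 and miR-96 were not analysed here. Small RNA of 3 vehicle libraries and 3 WA libraries was sequenced, and the comparison asks how the miRNA profile of the line differs after WA. WA-treated cells received 2 µM for 24 h. The study's methods give DMSO as the vehicle, while the labels call the same libraries untreated controls. All libraries come from 1 cell line that carries no engineered change according to the labels. The study calls the replicates independent, but the labels name no separate cultures, so the p-values measure only the spread between these libraries, which may be technical.

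The 3 hairpins of the cluster are cut from 1 primary transcript, and each gives a 5p and a 3p strand, of which the 5p strand is usually the one loaded into the silencing complex. The cluster is best known from sensory organs such as the retina and inner ear, and it is raised in many carcinomas. In breast cancer cells miR-182 and miR-96 are known to repress FOXO1 and FOXO3, transcription factors that restrain proliferation and promote cell death.

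The mature sequences are shown because the 5p arms differ by few bases in the seed, the stretch from base 2 to base 8 that pairs with target mRNAs. They are RefSeq sequences on the minus strand of chromosome 7 in GRCh38.p14, written 5′ to 3′, and the capitals mark the seed. miR-182-5p spans chr7:129770447-129770470, miR-183-5p spans chr7:129774967-129774988, miR-96-5p spans chr7:129774739-129774761 and miR-183-3p spans chr7:129774928-129774949.
miR-182-5p: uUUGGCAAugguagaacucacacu
miR-183-5p: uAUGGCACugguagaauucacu
miR-96-5p: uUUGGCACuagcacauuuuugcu
miR-183-3p: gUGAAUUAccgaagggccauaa

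The seeds of miR-182-5p and miR-96-5p share 6 of 7 bases by position, those of miR-183-5p and miR-96-5p also share 6, and those of miR-182-5p and miR-183-5p share 5. The longest run common to miR-182-5p and miR-183-5p is UGGUAGAA, which starts at base 9 of both and so lies outside the seed. The 3 seeds of the 5p arms are therefore all different. Among all mature human miRNAs of the reference, 1 other carried the seed of a 5p arm, miR-1271-5p, which has that of miR-96-5p. It was among none of the 368 table names, of 413, for which a sequence was found. The rule by which reads that match more than 1 mature sequence were counted is not given in the sources used here.

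The hairpins of miR-182 and miR-96 are shown because they place the 5p arm, in capitals, near the start of each precursor.
MIR182, chr7:129770383-129770492: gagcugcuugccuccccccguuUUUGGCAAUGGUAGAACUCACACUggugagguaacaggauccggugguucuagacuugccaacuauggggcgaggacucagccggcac
MIR96, chr7:129774692-129774769: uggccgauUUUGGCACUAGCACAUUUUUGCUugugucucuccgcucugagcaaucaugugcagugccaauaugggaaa

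In the GENCODE 44 annotation of GRCh38, MIR183 (ENSG00000207691) lies first in the direction of transcription, from 129774905 to 129775014. MIR96 (ENSG00000199158) follows after a gap of 135 bases, and MIR182 (ENSG00000207990) after a further 4199 bases. All 3 are intronic in the long noncoding RNA ENSG00000286380, on the same strand from 129763060 to 129780220. Of its 5 annotated transcripts 1 spans each hairpin, and none has an exon over one.

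The libraries held between 710878 and 4778066 reads with vehicle and between 156442 and 2232934 with WA. In these bulk libraries fewer cells of a kind and less RNA per cell cannot be told apart. Over the 413 miRNAs, WA replicate 3 correlated with WA replicates 1 and 2 at Pearson's r of 0.630 and 0.641 on the log2 scale, and with the vehicle libraries at 0.772 to 0.797. WA replicates 1 and 2 correlated at 0.964, vehicle replicates 2 and 3 at 0.987, and vehicle replicate 1 with those at 0.785 and 0.792. WA replicate 3 thus stood apart from its group, and vehicle replicate 1 to a lesser degree, so results are given with and without WA replicate 3. WA replicates 1 and 2 list 166 and 146 of the 413 miRNAs at 0, against 52 in WA replicate 3 and at most 21 in a vehicle library. The 5 markers of the line were present, at summed normalized values from 303108 to 593981 under vehicle and from 343579 to 457832 under WA. The sum covers markers that lay on opposite sides of the other libraries in WA replicate 3. There miR-21-5p, otherwise 14.0% to 30.5% of a library, took 1.61%, at a normalized value of 27029 against 277045 and 290979 in WA replicates 1 and 2. miR-221-3p and miR-125b-5p had their highest values in that library, at 169488 and 146399.

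After WA none of the 4 members differed from vehicle beyond the spread between libraries. The 3 5p arms shared 1 pattern: WA replicates 1 and 2 lay below every vehicle library and WA replicate 3 above every one. The pattern was chosen after the values were seen, and it is shared by 45 of the 327 miRNAs tested, or 13.8%. The fourth member, miR-183-3p, was instead highest in vehicle replicate 1.

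miR-182-5p, the most abundant member, had normalized values (reads divided by a size factor of the library) of 1893, 3649 and 3236 in vehicle replicates 1 to 3. With WA it had 1015, 1304 and 5077, in the order of the replicate numbers, which is kept throughout. The lower WA libraries sat below the vehicle range and the third above it, so the groups overlap. The group means were 2926 ± 918 (SD, n = 3) for vehicle and 2465 ± 2266 (SD, n = 3) for WA. These values rest on 175 reads in WA replicate 1 and on 12775 in vehicle replicate 2. With 95% Wilson intervals, which cover counting error only, miR-182-5p took 0.0965% to 0.130% of WA replicate 1 and 0.120% to 0.139% of WA replicate 2. These neighbours do not differ beyond counting error, whereas WA replicate 3 at 0.295% to 0.310% is far outside both.

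miR-183-5p had normalized values of 1596, 2199 and 2150 under vehicle. Under WA it had 539, 622 and 4980. It was the steadiest member among the vehicle libraries, where the highest was 1.38 times the lowest, yet in WA replicate 3 it was 8.01 times its value in WA replicate 2. The group means were 1981 ± 335 (SD, n = 3) for vehicle and 2047 ± 2541 (SD, n = 3) for WA. Their ratio of 1.03 and the negative log2 fold change given below differ in sign because the first averages values and the second averages logarithms. By reads it ranged from 93 in WA replicate 1 to 7699 in vehicle replicate 2.

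miR-96-5p had normalized values of 97.5, 914 and 725 under vehicle. Under WA it had 29.0, 51.8 and 1273. Here vehicle replicate 1 was low too, and the highest library was 43.9 times the lowest, against 5.00 times for miR-182-5p and 9.24 times for miR-183-5p. The group means were 579 ± 427 (SD, n = 3) for vehicle and 451 ± 712 (SD, n = 3) for WA. The low values rest on 72, 5 and 29 reads in vehicle replicate 1 and WA replicates 1 and 2. At that depth the last pair cannot be told apart, with 95% Wilson intervals of 0.00137% to 0.00748% and 0.00357% to 0.00737% of the library.

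miR-183-3p, the strand opposite miR-183-5p in the same hairpin, had normalized values of 251, 11.4 and 10.4 under vehicle. Under WA it was listed at 0, 3.57 and 24.0. The 0 of WA replicate 1 allows a normalized value of up to 17.4, the worth of 3 reads there, which is above 3 of the other 5 libraries. Its WA values rest on 0, 2 and 32 reads. The group means were 90.8 ± 138 (SD, n = 3) for vehicle and 9.21 ± 13.0 (SD, n = 3) for WA, and the vehicle mean is carried by replicate 1.

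**Figure D1:**
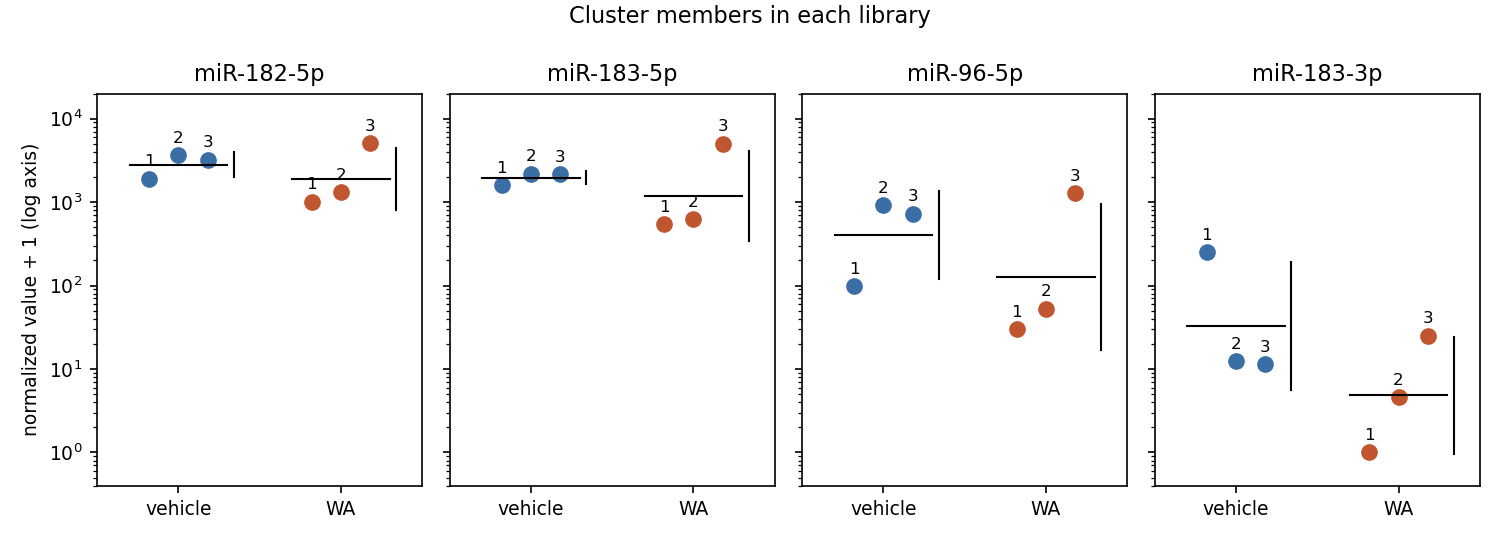
Normalized value + 1 of the 4 cluster members on a log axis, for 3 vehicle (blue) and 3 WA (orange) libraries numbered by replicate, with horizontal lines at the mean and vertical lines at ± 1 SD of the log2 values. In each 5p arm WA replicates 1 and 2 lie below every vehicle library and WA replicate 3 above every one, while miR-183-3p is highest in vehicle replicate 1, at 251.

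The order of the 5p arms within a library was steadier than their levels. miR-182-5p ranked from 36 to 68 of the 413 miRNAs and miR-183-5p from 37 to 90, both best placed in WA replicate 3. miR-96-5p ranked from 74 in WA replicate 3 to 217 in WA replicate 1. miR-182-5p lay above miR-183-5p, and miR-183-5p above miR-96-5p, in 6 of 6 libraries. miR-183-3p kept no such place: in vehicle replicate 1 it ranked 135, above miR-96-5p at 189, and elsewhere it lay below miR-96-5p. In WA replicate 3 the first pair, at 5077 and 4980, was close, with overlapping Wilson intervals of 0.295% to 0.310% and 0.290% to 0.304% of the library.

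limma was fitted to log2(normalized value + 1) of the 327 miRNAs that reached a normalized value of 10 in 3 or more libraries, and all 4 members passed that filter. The log2 fold change, WA minus vehicle, of miR-182-5p was -0.58 (SE 0.79, 95% interval -2.42 to 1.27, limma adjusted p = 0.628). For miR-183-5p it was -0.72 (SE 0.95, 95% interval -2.93 to 1.49, limma adjusted p = 0.619). For miR-96-5p it was -1.67 (SE 1.62, 95% interval -5.45 to 2.11, limma adjusted p = 0.515). Every interval of these 5p arms spans 0 and reaches well to both sides, so neither a fall nor a rise could be told from no change. For miR-183-3p the fold change was -2.76 (SE 1.72, 95% interval -6.78 to 1.26, limma adjusted p = 0.343), a value that depends on the added 1 because WA replicate 1 is at 0, and that was -1.29 without vehicle replicate 1 (limma adjusted p = 0.579).

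At a limma adjusted p under 0.05, 0 of 4 members and 18 of the 327 tested miRNAs, or 5.5%, were called. At an unadjusted limma p under 0.05, 0 of 4 members and 86 of the 327 tested miRNAs passed. The study's criteria are a log2 fold change of 1.5 or more in size with an unadjusted p below 0.05. The study used DESeq2. Applied here to the limma fits, its criteria again took 0 members, against 26.3% of those tested, so that share is not the study's own result. The groups did not overlap in 0 of 4 members and in 27.2% of those tested. The median log2 fold change of the members was -1.20 and that of the 5p arms -0.72, beside -0.91 over all 327, of which 198 lay below 0. The 2 most abundant members therefore lay nearer to 0 than the table's median, and miR-96-5p and miR-183-3p further below. By the size of their fold change the members ranked 275, 259, 177 and 117 of 327 in the order given above.

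Without WA replicate 3 all 4 fold changes were larger in size. That of miR-183-5p fell to -1.76 (SE 0.42, limma adjusted p = 0.0199) and passed the threshold. That of miR-182-5p was -1.29 (SE 0.49, limma adjusted p = 0.0829), that of miR-96-5p was -3.34 (SE 1.11, limma adjusted p = 0.0561) and that of miR-183-3p was -3.94 (SE 1.60, limma adjusted p = 0.0959). The single call among 4 stands beside 147 calls among the 327 miRNAs, or 45.0%, in the same 5 libraries. By the study's criteria miR-183-5p and miR-96-5p were called there, 2 of 4 members, beside 167 of the 327 miRNAs, or 51.1%. Both shares lie near or below the background, so neither sets the cluster apart from the table. By listed values, WA replicates 1 and 2 lay below every vehicle library in 47.1% of the tested miRNAs and in each member. For miR-183-3p this is not established, since the 0 of WA replicate 1 allows more than the values of vehicle replicates 2 and 3.

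**Figure D2:**
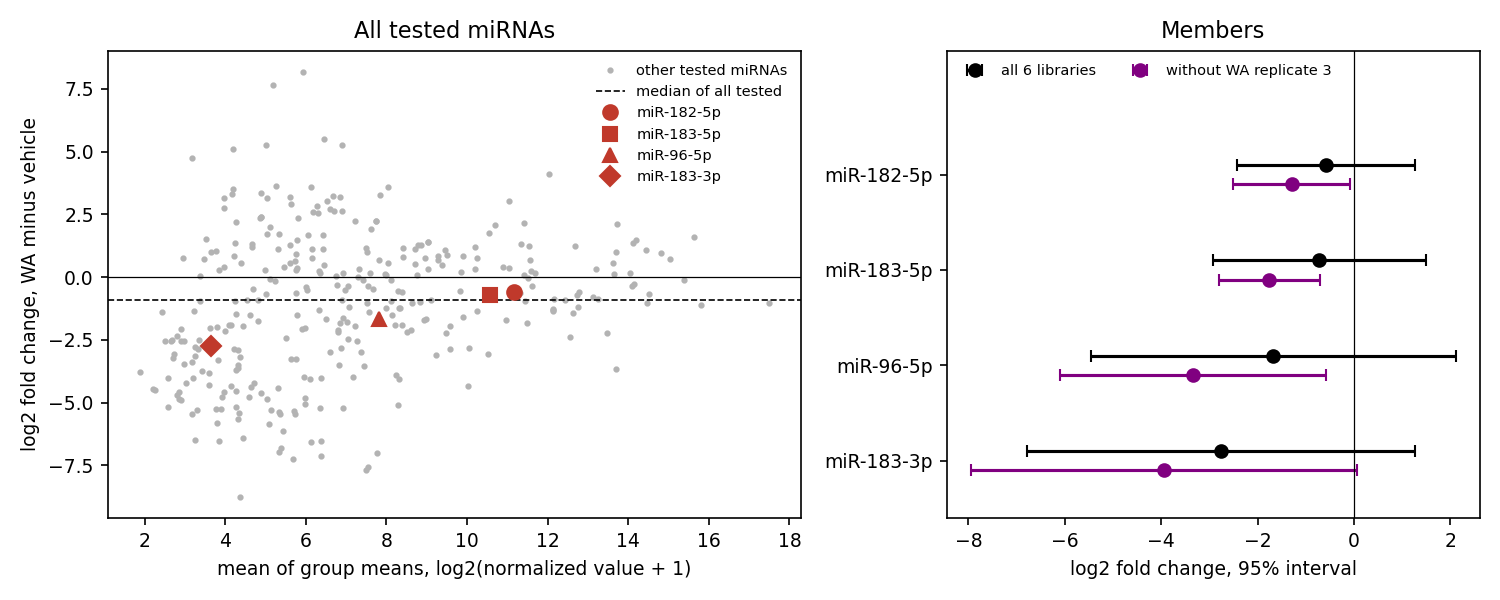
Left, log2 fold change (WA minus vehicle) against the mean log2(normalized value + 1) of the 327 tested miRNAs, with the 4 members in red and the median of all at -0.91 as a dashed line. Right, the members' fold changes with 95% intervals from all 6 libraries (black) and without WA replicate 3 (purple), where the interval of miR-183-3p still spans 0.

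The share of a library does not depend on its size factor, but it does depend on the other miRNAs in the total. The 4 members together took 0.399%, 0.496% and 0.477% of the reads in the vehicle libraries. Under WA they took 0.175%, 0.196% and 0.677%. Again WA replicates 1 and 2 were lowest and WA replicate 3 highest. The means were 0.457% ± 0.0518 (SD, n = 3) and 0.349% ± 0.284 (SD, n = 3), and no difference was detected (exact permutation test, two-sided, p = 0.4, adjusted p = 0.5 over 5 such tests, smallest possible p 0.1). Without WA replicate 3 the WA mean was -0.272 percentage points from that of vehicle (exact permutation p = 0.1, unadjusted, the smallest this design allows). That p follows from leaving out the only WA library above the vehicle range, so it adds no support. With miR-21-5p, which was low in WA replicate 3, taken out of every total, the difference over all 6 libraries moved from -0.108 to -0.202 percentage points (exact permutation p = 0.3).

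The 5p arms did not keep a constant ratio to one another. miR-182-5p made up 52.8%, 54.0% and 53.0% of their sum under vehicle, and 64.1%, 65.9% and 44.8% under WA. The vehicle libraries lay within a narrow band, and the WA libraries fell on both sides of it (exact permutation p = 0.4, adjusted p = 0.5). Without WA replicate 3 the WA mean was 11.8 percentage points higher (exact permutation p = 0.1, unadjusted, again the smallest possible). Here too the p follows from leaving out the only WA library below the vehicle band, so it adds no support. miR-183-5p made up 44.5%, 32.5% and 35.2% under vehicle and 34.1%, 31.4% and 44.0% under WA (exact permutation p = 0.7, adjusted p = 0.7). miR-96-5p made up 2.72%, 13.5% and 11.9% under vehicle and 1.83%, 2.62% and 11.2% under WA (exact permutation p = 0.2, adjusted p = 0.5). It thus fell into a low set of vehicle replicate 1 with WA replicates 1 and 2, and a high set of the other 3 libraries, which cuts across the treatment. The 3 libraries of the low set are also those with the fewest reads, and the part of depth in this split was not tested.

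**Figure D3:**
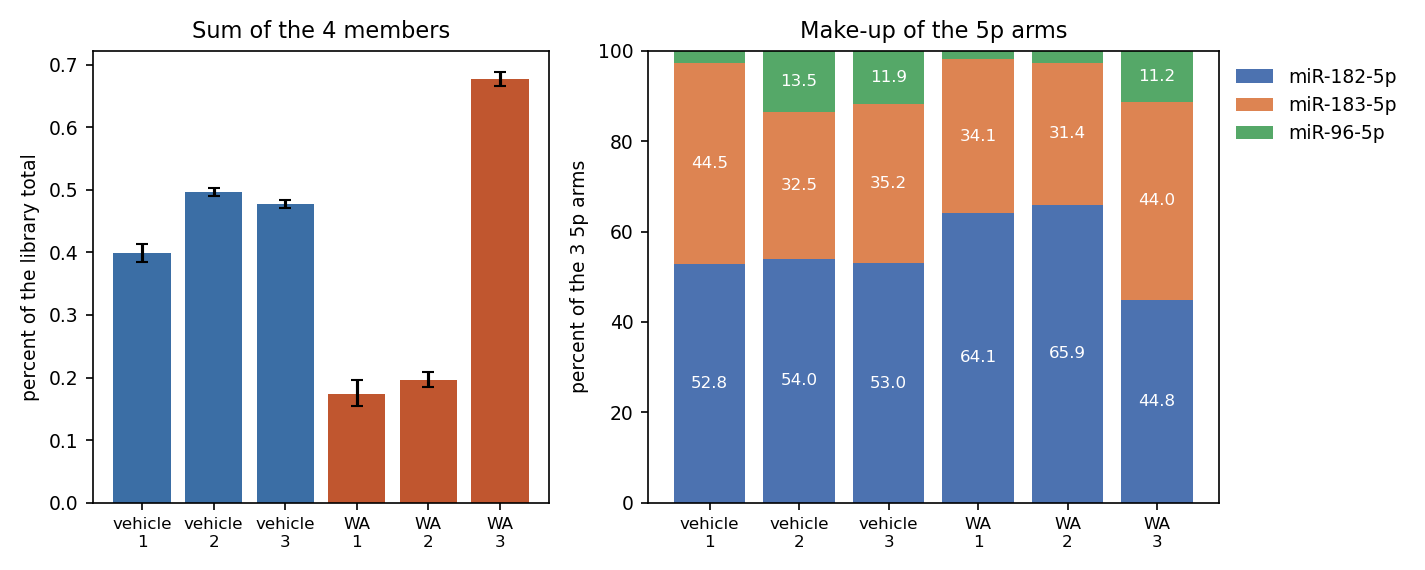
Left, summed share of the 4 members in each library in percent, with 95% Wilson intervals as error bars. Right, the make-up of the 3 5p arms in each library in percent, where miR-96-5p takes 11.2% to 13.5% in vehicle replicates 2 and 3 and WA replicate 3 and at most 2.72% elsewhere.

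The 2 strands of the miR-183 hairpin could be compared directly. miR-183-3p made up 13.6% of both strands in vehicle replicate 1, from 185 of 1363 reads, but 0.517% and 0.481% in vehicle replicates 2 and 3. In the WA libraries it made up 0 of 93 reads, which allows a share of up to 3.23%, then 0.571% and 0.480%. The strand was therefore the minor one in every library, with its highest share in vehicle replicate 1. The group means of 4.86% ± 7.55 (SD, n = 3) and 0.351% ± 0.307 (SD, n = 3) were not told apart (exact permutation p = 0.4, adjusted p = 0.5). Without vehicle replicate 1 the difference, WA minus vehicle, was -0.148 percentage points.

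The high 3p share in vehicle replicate 1 was set beside the 80 hairpins with both arms in the table and a sum of both arms above 0 in every library, where either arm alone may be at 0. For each, the arm with the lower mean over the 6 libraries was taken as the minor arm. Its share in vehicle replicate 1 was 27.2 times the mean of vehicle replicates 2 and 3 for miR-183-3p, which ranked 2 of 80 after miR-151a-5p at 73.0 times. The median of this ratio was 0.754, and 4 of 80 hairpins reached 10. The median minor share of 4.13% in vehicle replicate 1 was not above those of 6.05% and 6.39% in vehicle replicates 2 and 3.

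**Figure D4:**
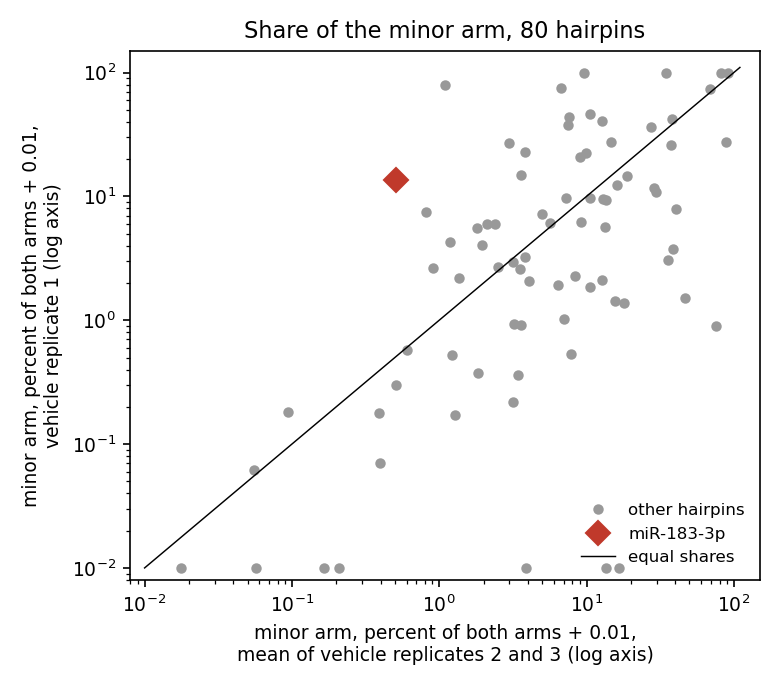
Share of the minor arm in percent of both arms, plus 0.01, in vehicle replicate 1 against the mean of vehicle replicates 2 and 3, on log axes, for 80 hairpins, with the line of equal shares. miR-183-3p (red) lies above the line at 13.6% against 0.517% and 0.481%.

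The profile of the 5p arms was compared with that of 230 other tested miRNAs. Their mean log2 value was no more than 3 below that of the lowest 5p arm, so the set includes miRNAs of lower level. The measure was the root mean square difference of log2 values centred over the 6 libraries. The most alike were miR-99b-5p at 0.350, miR-138-5p at 0.351, miR-361-3p at 0.414, miR-18a-3p at 0.573 and miR-744-5p at 0.580, against a median of 1.95. By the same measure miR-183-5p lay at 0.385, miR-182-5p at 0.513 and miR-96-5p at 0.831 from the mean they enter, and miR-183-3p at 2.2. miR-99b-5p, for example, had normalized values of 4738, 11886 and 19414 under vehicle and 1345, 2106 and 20290 under WA. miR-138-5p had 368, 572 and 541 under vehicle and 63.8, 130 and 1074 under WA. Both were lowest in WA replicates 1 and 2 and highest in WA replicate 3, as the 5p arms and miR-361-3p were. They were picked by likeness to this profile, so the match follows from the choice. miR-18a-3p and miR-744-5p were instead highest in vehicle replicate 3, at 227 and 2160, against 225 and 1547 in WA replicate 3.

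**Figure D5:**
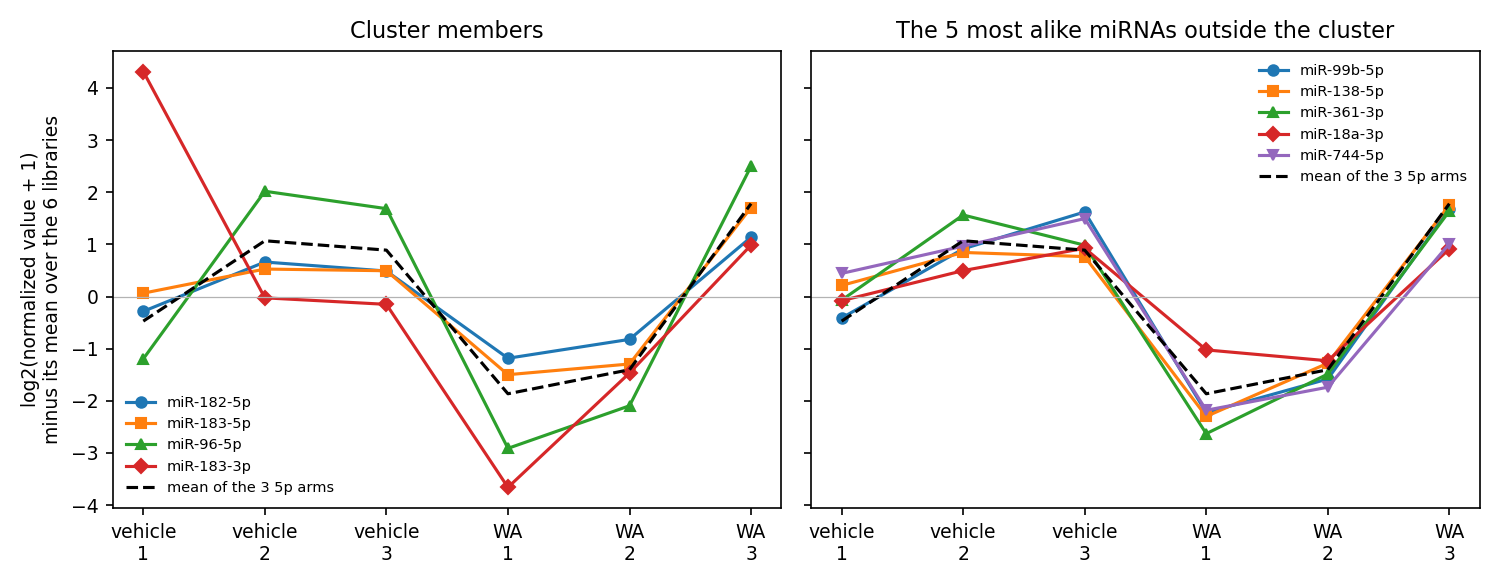
log2(normalized value + 1) minus its mean over the 6 libraries, for the 4 members (left) and the 5 most alike miRNAs outside the cluster (right), with the mean of the 5p arms dashed. Lines join the values of 1 miRNA and imply no order of replicates. miR-183-3p departs from the 5p arms in vehicle replicate 1.

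Of 10 listed arms of other miRNA genes on the same chromosome band, 7q32, 7 were in the table and tested. Of these 0 were called higher or lower, beside 5.5% of all 327 tested miRNAs, so the count does not set the band apart. The median log2 fold change of the 7 was 1.68, against -1.20 for the cluster. miR-129-5p, which also comes from a second locus, had normalized values of 62.3, 6.85 and 13.4 under vehicle and 2180, 2905 and 63.9 under WA (log2 fold change 5.27, limma adjusted p = 0.118). miR-29a-3p, a repressor of collagen mRNAs, had 24450, 13827 and 10862 under vehicle and 18476, 19643 and 92220 under WA. Of these, miR-129-5p was high where the 5p arms were low, and miR-29a-3p was high in WA replicate 3 without being low in WA replicates 1 and 2. miR-29b-3p, which also has a second locus, had 114, 1051 and 836 under vehicle and 609, 448 and 2164 under WA. Like miR-96-5p it was low in vehicle replicate 1 and highest in WA replicate 3, but its WA replicates 1 and 2 lay above vehicle replicate 1.

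Of 7 listed miRNAs outside the cluster that are also known to repress FOXO1 or FOXO3, 6 were in the table and 5 were tested. Of these 0 were called in either direction, beside 5.5% of all 327 tested miRNAs. The median log2 fold change of the 5 was -0.85. miR-132-3p had normalized values of 345, 170 and 223 under vehicle and 17.4, 8.93 and 792 under WA, so WA replicates 1 and 2 lay below every vehicle library and WA replicate 3 above, as in the 5p arms. miR-139-5p had 417, 804 and 764 under vehicle and was listed at 0, 0 and 72.1 under WA, so its groups did not overlap (limma adjusted p = 0.0715). miR-155-5p, best known from activated lymphocytes, had 2.71, 0 and 1.22 under vehicle and 26488, 24844 and 3.01 under WA. It reached a value of 10 in WA replicates 1 and 2 only and so was not tested.

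Markers of the epithelial state and of other cell types varied between these libraries. Of 6 epithelial-state markers, listed as low in this line, 4 were in the table. They were miR-200a-3p, miR-200b-3p, miR-200c-3p and miR-429, all of the miR-200 family that holds cells epithelial. All 4 were at 0 in WA replicates 1 and 2 and present in the other 4 libraries. WA replicates 1 and 2 list 166 and 146 of all 413 miRNAs at 0. Their summed normalized value ran from 192 to 1820 under vehicle and from 0 to 1240 under WA. The 1820 is that of vehicle replicate 1, where miR-200b-3p had 1459, against 65.4 and 63.9 in vehicle replicates 2 and 3. Of 8 blood cell markers 1 was in the table, miR-486-5p, at 492 to 911 under vehicle and at 0, 5.36 and 1223 under WA, and the defining miR-451a was not among those analysed here. Of 5 markers of fibroblasts and smooth muscle 3 were in the table, with a sum of 16.3 to 58.3 under vehicle and 99.9 to 5826 under WA. Among them miR-199a-3p had 0, 8.28 and 3.97 under vehicle and 3670, 4499 and 66.1 under WA. The first and second of these lists were low where the 5p arms were low, in WA replicates 1 and 2, and the last was high there. Of all tested miRNAs 47.1% lay below every vehicle library in WA replicates 1 and 2, so low values there do not set these lists apart. Among the vehicle libraries the first list went the other way: its sum was highest in vehicle replicate 1, where each 5p arm was lowest. None of these markers that were tested was called by limma at an adjusted p under 0.05, beside 5.5% of all 327 tested miRNAs. miR-199a-3p came nearest, at a limma adjusted p of 0.0527. miR-145-5p, among the last list, did not pass the filter and was not tested. The part of these markers in the values of the cluster was not tested either.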

How the data were processed

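All 6 small RNA libraries were used, 3 vehicle and 3 WA, grouped by their labels. The authors trimmed the reads with Trim Galore, aligned them with Bowtie to GRCh38.p10, discarded those of other small RNA classes and assigned what remained to mature miRNAs. The deposited signal is the read count of a miRNA that the authors divided by a DESeq2 size factor of its library, called the normalized value. In each library all values were multiples of 1 step, within 0.02 of a step. Reads given here are those multiples and assume that 1 step is 1 read. Low values were too few to fix the step, so no count model was run. The 4 deposited columns of the authors' own comparison (fold change, log2 fold change, p-value, adjusted p-value) were not used.

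limma 3.58.1 in R 4.3.3 was run on log2(normalized value + 1) with a variance trend, no robust step and no pairing, and its two-sided p-values were adjusted by Benjamini-Hochberg over 327 miRNAs. The filter was a normalized value of 10 in 3 libraries. The fit was tested on simulated data. Shares were compared by exact permutation tests, adjusted over 5 tests, and have 95% Wilson intervals. A count of 0 allows up to 3 reads. Intervals and floors cover counting error only. Library totals from 156442 to 4778066 reads set the precision. Alternatives were other scalings, pseudocounts and filters, no variance trend, thinning, the replicate block, library totals without miR-21-5p (for the share of the cluster) and each library left out.

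The named miRNAs are all cluster members, members of the lists, and the 5 tested miRNAs whose profile is closest to that of the 5p arms, among those with a mean log2 value no more than 3 below the lowest 5p arm. Hairpins compared by arm, with the miRNAs named from them, were chosen after values were seen. The members and lists were chosen with earlier results of these data known. Sequences came from RefSeq tables (GRCh38.p14) and gene positions from GENCODE 44. Targets and proteins were not analysed here.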

Additional observations from a re-analysis of the deposited data

How the results depend on the processing

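Leaving out WA replicate 3 was the alternative that changed a call among the members. When 1 library at a time was left out, the log2 fold change ran from -1.29 to -0.13 for miR-182-5p, from -1.76 to -0.16 for miR-183-5p, from -3.34 to -0.63 for miR-96-5p and from -3.94 to -1.29 for miR-183-3p, where the last value is without vehicle replicate 1. The number of members called ran from 0 to 1 at an adjusted p under 0.05 and from 0 to 2 by the study's criteria, and the higher numbers are those without WA replicate 3, where 45.0% and 51.1% of all tested miRNAs were called. The difference in share, in percentage points, ran from -0.272 to -0.0208 for the cluster in the library, from 1.21 to 11.8 for miR-182-5p, from -4.65 to 2.63 for miR-183-5p, from -7.46 to -2.06 for miR-96-5p and from -6.69 to -0.148 for miR-183-3p. The sign for miR-183-5p turned when vehicle replicate 1 or either WA replicate 1 or 2 was left out, and the cause was not tested.

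Under the other 9 alternatives of the fit 0 members were called and no sign turned. The cluster's share difference, -0.108 as reported, was -0.202 percentage points with library totals that leave out miR-21-5p (exact permutation p = 0.3). Their fold changes ran from -0.58 to -0.31, from -0.79 to -0.45, from -1.89 to -1.40 and from -3.91 to -1.54 in the same order. miR-183-3p was left out by the filter under upper-quartile scaling and under a value of 10 in every library. Over all miRNAs the median log2 fold change moved from -0.91 to -0.62 under upper-quartile scaling and to -0.10 under a value of 10 in every library. The number called over all miRNAs, 18 as reported, was 25 with total-count scaling, 53 with no filter, 7 with a pseudocount of 0.1 or 10, and 0 under upper-quartile scaling, a value of 10 in every library, and without any 1 of vehicle replicates 2 and 3 and WA replicates 1 and 2. Of those 0 counts, the same limma fits gave 78, 29, 52, 46, 47 and 50 miRNAs at an unadjusted p under 0.05.

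The replicate numbers showed no sign of pairing: deviations from the group means of same-numbered libraries correlated at -0.07, 0.06 and -0.09. Those of differently numbered libraries correlated at -0.07 to 0.08. With 3 libraries per group a pairing could go unseen. With the replicate block the adjusted p was 0.726, 0.666, 0.465 and 0.366 for the members in the same order, 24 miRNAs were called in all, and no member's call changed. Depth limits miR-96-5p and miR-183-3p most, with 5 and 0 reads in WA replicate 1.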
